A study of Homo sapiens with 18 samples.

Results

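The plasminogen activators, their inhibitors and the regulators of tissue factor were followed through messenger RNA libraries of THESC cells, an established line of human endometrial stromal cells immortalised with telomerase. The members were the 8 genes PLAT, PLAU, PLAUR, SERPINE2, F3, TFPI, TFPI2 and THBD, found by their symbols among the 78724 genes of the deposited count table; 7 of the 8 passed the filter on low counts, and THBD did not. The study compared 3 engineered lines, each with or without a progestin. Promoter cells carried a guide RNA named for the promoter and are labelled PGRB-dominant, U1U2 cells carried guides named U1U2 and are labelled PGRA/B-equivalent, and NT cells carried a non-targeting guide and are labelled WT. PGR encodes the progesterone receptor, PGRA and PGRB are its short and long isoforms, and the series describes PGR as activated in the promoter and U1U2 lines. Each line was treated for 72 h with the synthetic progestin medroxyprogesterone acetate (MPA, 1 µM) or with vehicle (0.01% ethanol). All cells were kept in low-serum medium with blasticidin, and there are 3 libraries per group, 6 groups and 18 libraries. The labels do not say whether a line is 1 clone, nor that replicates were separate cultures, so the spread behind every p-value here is that between libraries and may be technical.

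Plasminogen activators are serine proteases that cut plasminogen to plasmin, which dissolves fibrin and cuts matrix proteins. PLAT encodes the tissue-type activator and PLAU the urokinase-type activator, and PLAUR encodes the receptor that holds urokinase at the cell surface. SERPINE2, also called protease nexin 1, is a serpin that inactivates thrombin, plasmin and both activators. F3 encodes tissue factor, the membrane receptor for factor VII that starts clotting. TFPI blocks the tissue factor complex, TFPI2 is a related inhibitor that acts on plasmin and other serine proteases, and THBD encodes thrombomodulin, which turns thrombin towards activation of protein C. In the endometrium this system is known for its place in menstrual bleeding and in the control of bleeding at implantation, and decidual stromal cells are a known source of tissue factor.

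Library totals ran from 11.9 to 33.4 M counts, with a median of 22.9 M, and mitochondrial genes took 1.63% to 3.02% of them. NT vehicle replicate 1 was the shallowest library and had the highest mitochondrial share. PGR itself had 264, 303 and 280.3 CPM (counts scaled to library size with TMM factors) in promoter cells in MPA and 433, 475 and 395 CPM in promoter cells in vehicle. It had 291, 264 and 226 CPM in U1U2 cells in MPA and 674, 531 and 584 CPM in U1U2 cells in vehicle. In NT cells it had 95.1, 82.3 and 76.2 CPM in MPA and 120.0, 153 and 147 CPM in vehicle, so every library of the activated lines stood above every NT library. All 10 endometrial stromal markers were expressed, with summed levels of 10369 to 17532 CPM. Of 8 endothelial markers, 1 passed the filter: TEK carried nearly all of a summed level of 42.3 to 43.5 CPM in promoter cells in MPA and 72.6 to 75.1 CPM in promoter cells in vehicle. The same sum was 45.4 to 50.6 CPM in U1U2 cells in MPA and 66.8 to 74.6 CPM in U1U2 cells in vehicle, and 44.1 to 46.4 CPM in NT cells in MPA and 55.4 to 59.0 CPM in NT cells in vehicle. ERG and CLDN5 had no count in any library and CDH5 had 0 to 2. The 6 epithelial markers summed to 0.587 to 0.979 CPM in promoter cells in MPA and 0.816 to 1.36 CPM in vehicle. In U1U2 cells they summed to 0.797 to 1.47 CPM in MPA and 1.499 to 1.84 CPM in vehicle. In NT cells they summed to 0.996 to 1.24 CPM in MPA and 1.86 to 2.01 CPM in vehicle. EPCAM, the 1 of them that passed the filter, fell under MPA in promoter cells (-1.38, adjusted p = 0.0367) and had log2 fold changes of -0.86 in U1U2 cells (adjusted p = 0.173) and -1.29 in NT cells (adjusted p = 0.0617). Its MPA libraries all lay below its vehicle libraries in each line. Of all genes that passed the filter, 35.7% had no overlap between MPA and vehicle in promoter, 23.8% in U1U2 and 19.3% in NT cells. Of the 6 leukocyte markers, PTPRC alone passed the filter and fell under MPA in the 3 lines (log2 fold changes of -1.12 in promoter, -1.10 in U1U2 and -1.36 in NT cells), while CD3E and TYROBP had no count. The part of these markers in the results that follow was not tested. In bulk RNA, fewer cells of a type and less RNA per cell cannot be told apart.

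Per kilobase of exon, taken as the union over the GENCODE 29 transcripts of each gene, TFPI2, F3 and SERPINE2 were the most abundant members and PLAU and PLAUR the least. Group means ran from 95.9 to 204 CPM per kilobase for TFPI2, from 72.8 to 129.9 for F3 and from 38.5 to 62.8 for SERPINE2. PLAT ranged from 10.9 to 33.4 CPM per kilobase, TFPI from 11.5 to 23.4, PLAU from 2.90 to 9.87 and PLAUR from 2.49 to 3.59. F3 stood above TFPI2 in promoter cells in MPA, at 129.9 ± 4.63 against 105 ± 3.42 CPM per kilobase, and in U1U2 cells in MPA, at 106 ± 3.04 against 95.9 ± 4.91 CPM per kilobase (SD, n = 3). In the other 4 groups F3 was the lower of the 2, for example 90.3 ± 7.70 against 204 ± 17.4 CPM per kilobase in NT cells in vehicle. The union over transcripts understates genes with many isoforms, such as TFPI, whose exons covered 11714 bases.

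**Figure D1:**
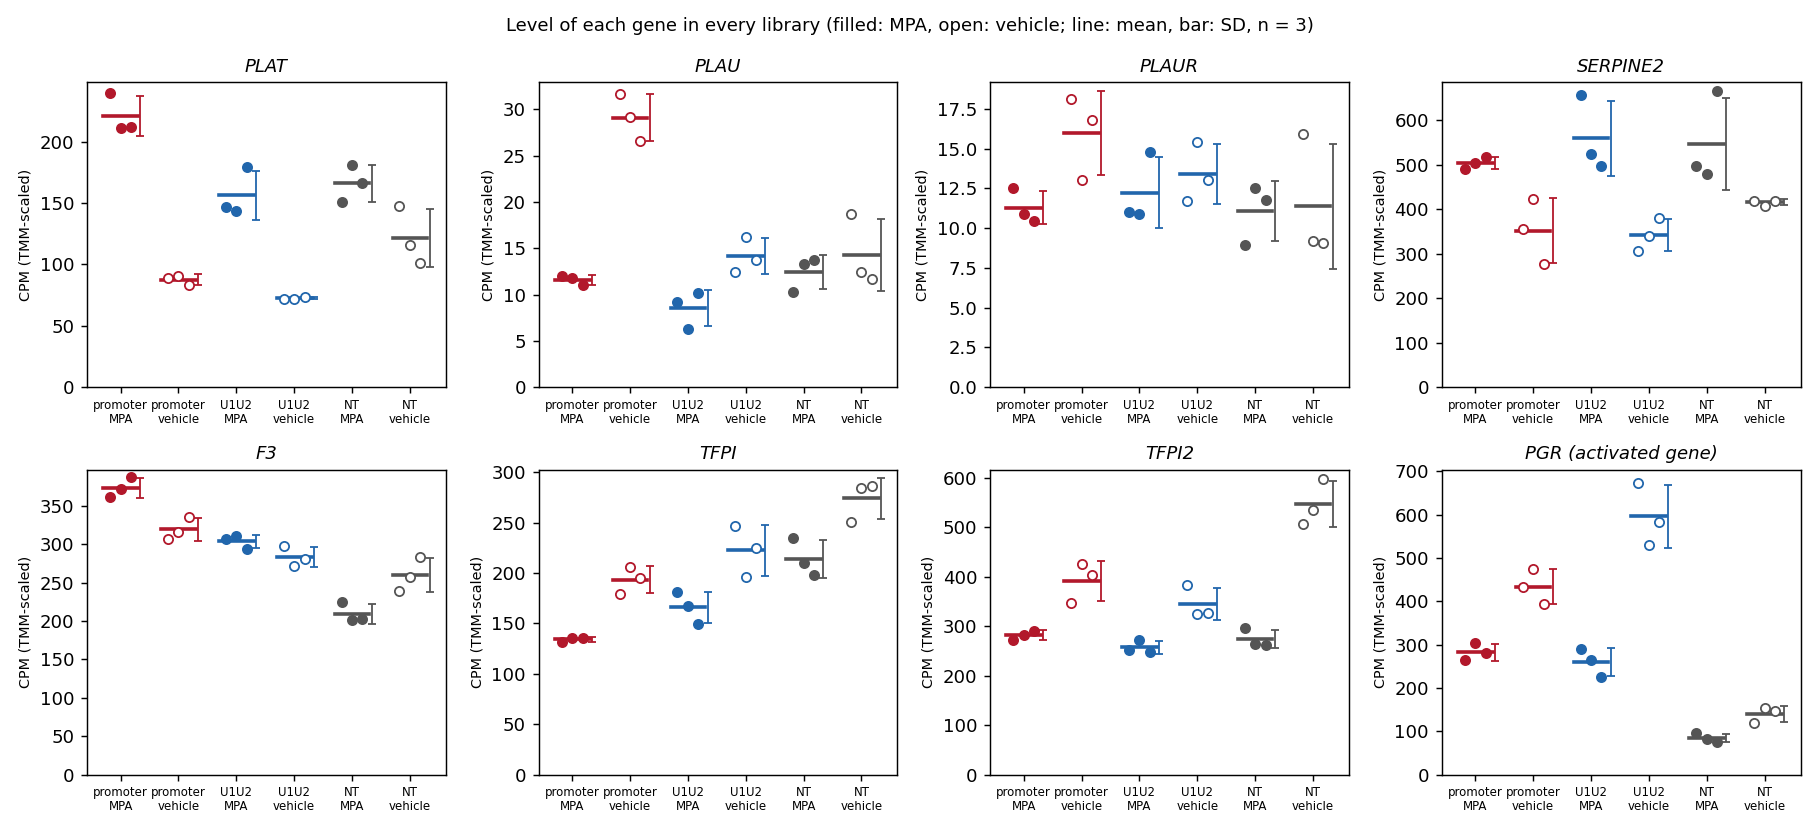
Level of each of the 7 tested members, and of PGR, in every library, in TMM-scaled CPM on a linear axis from 0. Filled points are MPA and open points vehicle; the horizontal line is the group mean and the vertical bar its SD (n = 3). PLAT was highest in promoter cells in MPA (221 ± 16.3 CPM), PLAU in promoter cells in vehicle (29.1 ± 2.53 CPM), and TFPI and TFPI2 in NT cells in vehicle (274 ± 20.3 and 547 ± 46.6 CPM).

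The first question was how the progestin acted in each line. In promoter cells 5 of the 7 tested members passed the threshold, an adjusted p under 0.05 in edgeR's quasi-likelihood test with Benjamini-Hochberg adjustment over 15558 genes: PLAT and SERPINE2 rose and PLAU, TFPI and TFPI2 fell, where 15% of all tested genes passed (6.63% higher and 8.4% lower). In U1U2 cells the same 5 members passed in the same directions, against 11.7% of all tested genes (5.44% higher and 6.22% lower). In NT cells 4 members passed, against 5.93% of all tested genes (2.44% higher and 3.48% lower): PLAT rose and F3, TFPI and TFPI2 fell. The members' median log2 fold change was -0.47 in promoter, -0.13 in U1U2 and -0.19 in NT cells, and over all tested genes it was -0.0034 in promoter, 0.03 in U1U2 and 0.02 in NT cells. When only the libraries of the 2 groups compared were fitted, the NT calls of PLAT, F3 and TFPI did not pass (adjusted p of 0.152, 0.180 and 0.130) and neither did TFPI in U1U2 cells (adjusted p = 0.0600), while PLAUR fell in promoter cells (adjusted p = 0.0211). Without the filter on low counts, F3 and TFPI did not pass in NT cells (adjusted p of 0.151 and 0.0625), and SERPINE2 in NT cells and PLAUR in promoter cells did (adjusted p of 0.00512 and 0.0254).

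PLAT (ENSG00000104368, chr8:42175233-42207724, minus strand, GRCh38) had 239.8, 211 and 212 CPM in promoter cells in MPA, against 89.1, 90.9 and 83.0 CPM in promoter cells in vehicle. In U1U2 cells it had 146, 143 and 179 CPM in MPA, against 72.0, 71.9 and 73.2 CPM in vehicle. NT cells had 151, 181 and 166 CPM in MPA, against 147, 116 and 101 CPM in vehicle. In each line all MPA libraries stood above all vehicle libraries, where 35.7% of all tested genes did not overlap in promoter, 23.8% in U1U2 and 19.3% in NT cells, although in NT cells the gap was narrow. The log2 fold changes were 1.33 ± 0.12 in promoter cells (SE, adjusted p = 1.95e-07), 1.11 ± 0.12 in U1U2 cells (adjusted p = 2.61e-06) and 0.45 ± 0.12 in NT cells (adjusted p = 0.0263). The NT call was lost without NT vehicle replicate 2 or 3, or without NT MPA replicate 2 or 3 (adjusted p of 0.0730 to 0.151), and with library totals in place of TMM (adjusted p = 0.0501). Across groups PLAT ran from promoter cells in MPA, through NT (166 ± 15.0 CPM) and U1U2 cells (156 ± 19.8 CPM) in MPA and NT cells in vehicle (121 ± 23.4 CPM), down to promoter (87.7 ± 4.16 CPM) and U1U2 cells (72.4 ± 0.712 CPM) in vehicle. In that order NT and U1U2 cells in MPA overlapped, as did U1U2 cells in MPA and NT cells in vehicle.

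PLAU (ENSG00000122861, chr10:73909177-73917497, plus strand) moved the other way. It had 12.1, 11.8 and 11.02 CPM in promoter cells in MPA, against 31.6, 29.2 and 26.6 CPM in promoter cells in vehicle. U1U2 cells had 9.23, 6.34 and 10.1 CPM in MPA, against 12.5, 16.3 and 13.8 CPM in vehicle. In NT cells it had 10.3, 13.3 and 13.7 CPM in MPA, against 18.7, 12.4 and 11.7 CPM in vehicle, and these libraries overlapped. The 3 promoter libraries in vehicle stood apart from all 15 others, none of which exceeded 18.7 CPM. The log2 fold changes were -1.32 ± 0.18 in promoter cells (adjusted p = 3.88e-05), -0.73 ± 0.18 in U1U2 cells (adjusted p = 0.0137) and -0.19 ± 0.19 in NT cells (adjusted p = 0.654). The U1U2 call was lost without U1U2 vehicle replicate 2 (adjusted p = 0.0733) or U1U2 MPA replicate 2 (adjusted p = 0.0779). In order of group means, PLAU in promoter cells in vehicle was followed by NT and U1U2 cells in vehicle (14.3 ± 3.86 and 14.2 ± 1.93 CPM), NT and promoter cells in MPA (12.4 ± 1.85 and 11.6 ± 0.538 CPM) and U1U2 cells in MPA (8.56 ± 1.98 CPM). The 4 groups between the highest and the lowest overlapped with their neighbours.

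PLAUR (ENSG00000011422, chr19:43646095-43670547, minus strand) passed the test in none of the lines. It had 12.5, 10.9 and 10.5 CPM in promoter cells in MPA, against 18.1, 13.1 and 16.8 CPM in promoter cells in vehicle. These groups did not overlap (35.7% of all tested genes), and the log2 fold change was -0.51 ± 0.20 (adjusted p = 0.108). In U1U2 cells it had 11.01, 10.9 and 14.8 CPM in MPA, against 11.7, 15.4 and 13.04 CPM in vehicle. NT cells had 8.96, 12.6 and 11.8 CPM in MPA, against 15.9, 9.19 and 9.04 CPM in vehicle, with replicate 1 of the vehicle group alone above 9.19 CPM. All neighbours in the order of the 6 group means overlapped, from 16.0 ± 2.62 CPM in promoter cells in vehicle down to 11.1 ± 1.89 CPM in NT cells in MPA. NT vehicle replicate 1 was also the highest of its group for PLAT and PLAU, and values without it stand beside the line comparisons that it changes.

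The ratio of PLAT to PLAU within a library, in CPM and so with no correction for length, was 19.0 ± 1.03 in promoter cells in MPA and 3.02 ± 0.173 in promoter cells in vehicle (SD, n = 3). It was 18.7 ± 3.49 in U1U2 cells in MPA and 5.17 ± 0.685 in U1U2 cells in vehicle, and 13.5 ± 1.25 in NT cells in MPA and 8.60 ± 0.722 in NT cells in vehicle. In vehicle the 3 lines did not overlap, with promoter cells lowest and NT cells highest. In MPA every library stood above every vehicle library of any line, and promoter and U1U2 cells overlapped. The ratio of PLAU to its receptor PLAUR was 1.03 ± 0.0606 in promoter cells in MPA against 1.85 ± 0.341 in promoter cells in vehicle. It was 0.702 ± 0.128 in U1U2 cells in MPA against 1.06 ± 0.00665 in U1U2 cells in vehicle, and 1.12 ± 0.0575 in NT cells in MPA against 1.28 ± 0.0886 in NT cells in vehicle.

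**Figure D2:**
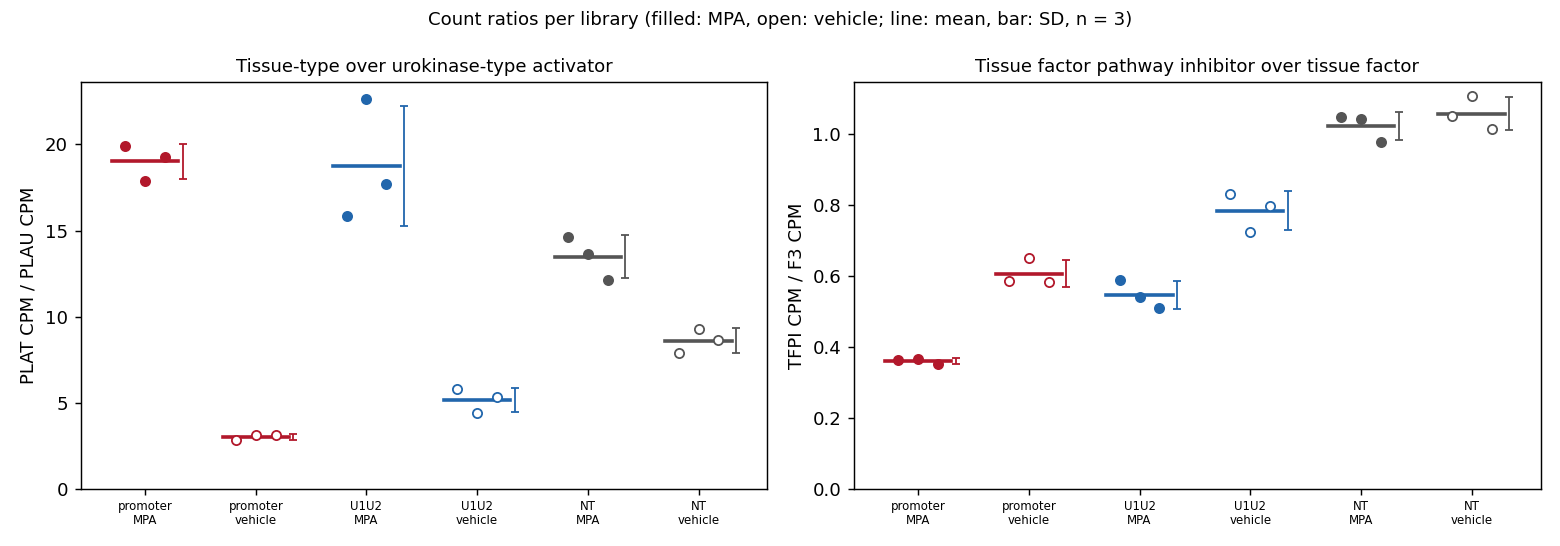
Ratios of 2 CPM levels within each library: PLAT over PLAU on the left and TFPI over F3 on the right, both on linear axes from 0. Filled points are MPA and open points vehicle; lines are group means and bars SD (n = 3). PLAT over PLAU lies between 12.1 and 22.6 in the MPA libraries and between 2.82 and 9.30 in the vehicle libraries, while TFPI over F3 runs from about 1 in NT cells down to 0.360 ± 0.00834 in promoter cells in MPA.

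SERPINE2 (ENSG00000135919, chr2:223975112-224039319, minus strand) was higher in MPA in all 3 lines, and the difference passed the test in U1U2 and promoter cells. It had 490.3, 504 and 517 CPM in promoter cells in MPA, against 356, 423 and 277 CPM in promoter cells in vehicle (log2 fold change 0.52 ± 0.15, adjusted p = 0.0214). U1U2 cells had 656, 524 and 496 CPM in MPA, against 306, 340.2 and 379.5 CPM in vehicle (0.71 ± 0.15, adjusted p = 0.00303). In NT cells it had 496, 478 and 665 CPM in MPA, against 419, 407 and 419 CPM in vehicle (0.40 ± 0.15, adjusted p = 0.151). No MPA library fell to the level of any vehicle library, while the MPA groups overlapped with each other and so did neighbouring vehicle groups. Within a line, MPA and vehicle did not overlap for 35.7% of all tested genes in promoter, 23.8% in U1U2 and 19.3% in NT cells. The promoter call was lost without any single promoter library except vehicle replicate 2 (adjusted p of 0.0511 to 0.0980). The ratio of SERPINE2 to PLAT was 2.29 ± 0.214 in promoter cells in MPA and 3.99 ± 0.661 in promoter cells in vehicle. In U1U2 cells it was 3.63 ± 0.855 in MPA and 4.72 ± 0.466 in vehicle, with overlap, and in NT cells 3.31 ± 0.680 in MPA and 3.50 ± 0.643 in vehicle, also with overlap.

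**Figure D3:**
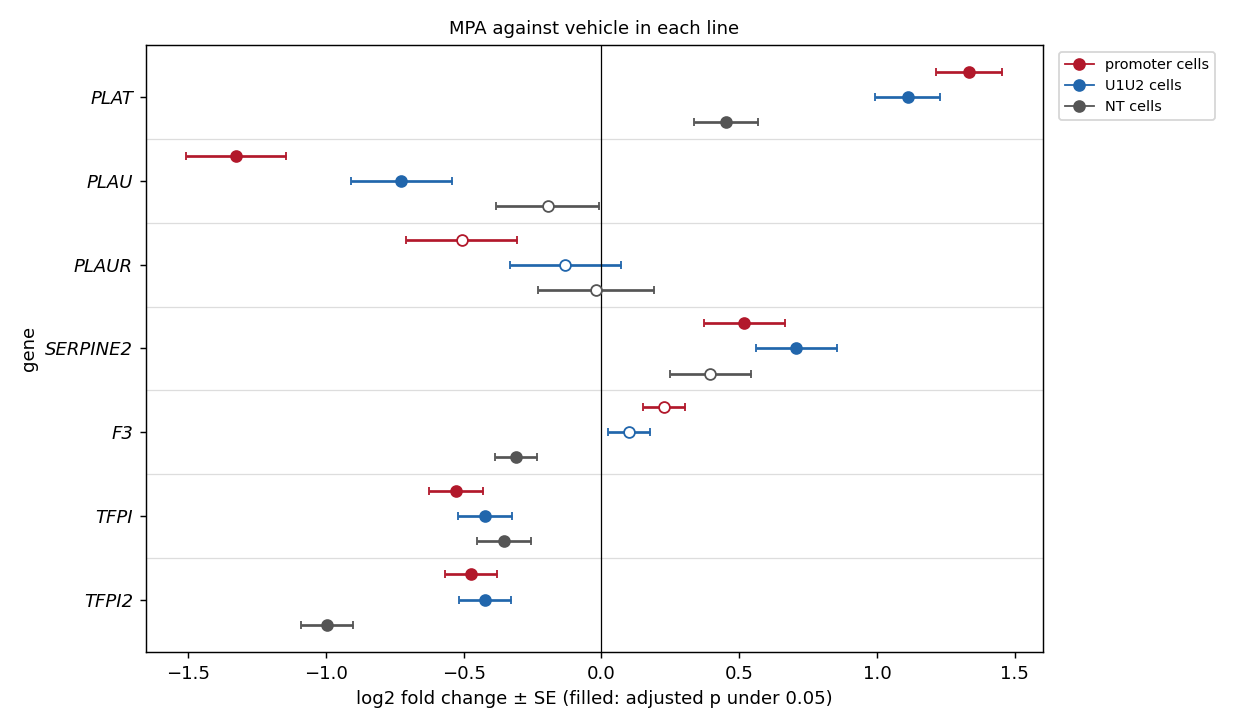
Log2 fold change of MPA over vehicle (horizontal axis) for each tested member (rows) in promoter, U1U2 and NT cells, with bars of 1 SE from the edgeR fit and filled points for an adjusted p under 0.05. PLAT and SERPINE2 lie right of 0 and TFPI and TFPI2 left of 0 in all 3 lines, PLAU lies furthest left in promoter cells (-1.32 ± 0.18), and F3 lies left of 0 in NT cells only.

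F3 (ENSG00000117525, chr1:94529225-94541800, minus strand) had 361, 372 and 387 CPM in promoter cells in MPA, against 306, 316 and 335 CPM in promoter cells in vehicle. U1U2 cells had 307, 310.0 and 294 CPM in MPA, against 297, 271 and 281 CPM in vehicle, and these overlapped. NT cells had 224, 201 and 203 CPM in MPA, against 239, 257 and 283 CPM in vehicle. It fell in NT cells, by 0.31 ± 0.08 on the log2 scale (adjusted p = 0.0194), a call lost without NT vehicle replicate 2 or 3 or NT MPA replicate 2 or 3 (adjusted p of 0.0633 to 0.118). In promoter cells all MPA libraries were above all vehicle libraries, where 35.7% of all tested genes did not overlap. The log2 fold change there was 0.23 ± 0.08 and did not pass (adjusted p = 0.0555, and 0.0295 in DESeq2). In U1U2 cells it was 0.10 ± 0.08 (adjusted p = 0.480). In order of group means F3 ran from promoter cells in MPA (373 ± 13.3 CPM) and in vehicle (319 ± 14.8 CPM), through U1U2 cells in MPA (304 ± 8.75 CPM) and in vehicle (283 ± 13.02 CPM), to NT cells in vehicle (259.5 ± 22.1 CPM) and in MPA (209 ± 12.8 CPM). The highest and the lowest group stood clear of their neighbours, and the 4 between overlapped with the next.

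The RefSeq promoter windows (GRCh38.p14, 300 bases around the start site) matched 6 of the 8 members and are shown for F3 and TFPI2, which differed between the lines and hold a match to the AP-1 motif TGANTCA, and for PLAU, whose level differed most between lines in vehicle. Capitals mark the AP-1 matches. F3 holds 2, starting at positions -223 and -210 from the start site, and TFPI2 holds 1, at -87.
F3 (chr1:94541710-94542009, minus strand): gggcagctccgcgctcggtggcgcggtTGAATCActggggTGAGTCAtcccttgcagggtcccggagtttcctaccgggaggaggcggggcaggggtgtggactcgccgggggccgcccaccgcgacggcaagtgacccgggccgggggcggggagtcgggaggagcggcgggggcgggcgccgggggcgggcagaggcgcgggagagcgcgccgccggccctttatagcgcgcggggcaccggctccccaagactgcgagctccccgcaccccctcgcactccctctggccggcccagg
TFPI2 (chr7:93890704-93891003, minus strand): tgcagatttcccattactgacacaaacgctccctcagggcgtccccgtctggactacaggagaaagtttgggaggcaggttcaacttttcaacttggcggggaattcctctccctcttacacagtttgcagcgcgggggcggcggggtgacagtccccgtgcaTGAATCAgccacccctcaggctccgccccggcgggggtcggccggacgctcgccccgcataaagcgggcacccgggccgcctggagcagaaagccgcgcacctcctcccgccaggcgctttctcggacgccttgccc
PLAU (chr10:73910360-73910659, plus strand): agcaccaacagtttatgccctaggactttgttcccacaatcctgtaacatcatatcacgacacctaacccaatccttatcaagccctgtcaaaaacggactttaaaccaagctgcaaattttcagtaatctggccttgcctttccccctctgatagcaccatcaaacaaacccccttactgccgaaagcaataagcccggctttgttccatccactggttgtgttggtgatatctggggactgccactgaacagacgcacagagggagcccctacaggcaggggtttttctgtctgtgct

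Of the 6 windows, those of F3, TFPI2 and PLAUR (at -186) held TGANTCA, which reads the same on both strands, and 7.71% of all 35116 RefSeq promoter windows did. None of the 6 held the steroid receptor motif TGTTCT on either strand, which 14.8% of all windows held. These are matches of letters in a short window and describe nothing about binding. Only the first window listed for each gene was searched, so any other start site was not covered. The TFPI window (chr2:187554386-187554685), for example, lies inside the gene, whose upstream end is at 187565760.

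TFPI and TFPI2 were lower in MPA in all 3 lines. TFPI (ENSG00000003436, chr2:187464230-187565760, minus strand) had 131, 136 and 136 CPM in promoter cells in MPA, against 179, 206 and 195 CPM in promoter cells in vehicle (log2 fold change -0.53 ± 0.10, adjusted p = 0.000901). U1U2 cells had 181, 167 and 149.8 CPM in MPA, against 247, 196 and 224 CPM in vehicle (-0.42 ± 0.10, adjusted p = 0.00664). In NT cells it had 235, 210.0 and 198 CPM in MPA, against 250.7, 285 and 287 CPM in vehicle (-0.35 ± 0.10, adjusted p = 0.0378). No MPA library reached a vehicle library of its own line, where 35.7% of all tested genes did not overlap in promoter, 23.8% in U1U2 and 19.3% in NT cells. The NT call was lost without NT vehicle replicate 2 or 3 or NT MPA replicate 2 or 3 (adjusted p of 0.130 to 0.172). NT cells in vehicle (274 ± 20.3 CPM) stood above all other groups and promoter cells in MPA (134 ± 2.63 CPM) below them. Between these, the means were 223 ± 25.3 CPM in U1U2 cells in vehicle, 214 ± 18.8 CPM in NT cells in MPA, 193 ± 13.5 CPM in promoter cells in vehicle and 166 ± 15.6 CPM in U1U2 cells in MPA, each overlapping with the next.

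TFPI2 (ENSG00000105825, chr7:93885396-93890991, minus strand) had 273, 283 and 291 CPM in promoter cells in MPA, against 348, 426 and 403 CPM in promoter cells in vehicle (log2 fold change -0.47 ± 0.09, adjusted p = 0.00159). In U1U2 cells it had 252, 272 and 247 CPM in MPA, against 383, 325 and 326 CPM in vehicle (-0.42 ± 0.09, adjusted p = 0.00510). NT cells had 296, 265 and 263 CPM in MPA, against 508, 536 and 599 CPM in vehicle (-0.996 ± 0.09, adjusted p = 1.53e-06). The MPA groups of the 3 lines lay close together, at 282 ± 9.18 CPM in promoter, 257 ± 13.2 CPM in U1U2 and 275 ± 18.8 CPM in NT cells. The vehicle means were 392 ± 40.2 CPM in promoter, 345 ± 33.1 CPM in U1U2 and 547 ± 46.6 CPM in NT cells. Promoter and U1U2 cells in vehicle overlapped (log2 fold change 0.19 ± 0.09, adjusted p = 0.632). NT cells in vehicle overlapped with no other group.

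The ratio of TFPI to F3 within a library was 0.360 ± 0.00834 in promoter cells in MPA and 0.606 ± 0.0391 in promoter cells in vehicle. It was 0.546 ± 0.0400 in U1U2 cells in MPA and 0.784 ± 0.0548 in U1U2 cells in vehicle, and 1.02 ± 0.0390 in NT cells in MPA and 1.06 ± 0.0471 in NT cells in vehicle. The MPA and vehicle libraries did not overlap in promoter or U1U2 cells, and overlapped in NT cells. The ratio of TFPI2 to TFPI was 2.10 ± 0.0381 in promoter cells in MPA and 2.02 ± 0.0709 in promoter cells in vehicle. It was 1.56 ± 0.144 in U1U2 cells in MPA and 1.55 ± 0.101 in U1U2 cells in vehicle, and 1.28 ± 0.0380 in NT cells in MPA and 2.00 ± 0.106 in NT cells in vehicle.

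THBD (ENSG00000178726, chr20:23045633-23049741, minus strand) was at the limit of detection. It had 5 counts in all 18 libraries together: 1 each in promoter MPA replicate 3, promoter vehicle replicates 1 and 3, U1U2 MPA replicate 3 and NT vehicle replicate 1. The other 13 libraries had 0, and 3 counts in a library correspond to 0.0898 to 0.251 CPM, the level that a count of 0 allows, for counting error only. No difference between groups was detectable at this depth.

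The second question was how the activated lines differed from NT cells at the same treatment. In vehicle, 5 of 7 members differed between promoter and NT cells, against 6.75% of all tested genes (3.07% higher and 3.68% lower): PLAU and F3 were higher and PLAT, TFPI and TFPI2 lower in promoter cells. Between U1U2 and NT cells in vehicle 2 members differed, PLAT and TFPI2, both lower in U1U2 cells, against 1.14% of all tested genes (0.431% higher and 0.713% lower). The all-gene count of 178 behind that share was 23 without NT vehicle replicate 2, 28 and 27 without U1U2 vehicle replicate 2 and 3, and 639 without U1U2 vehicle replicate 1. Between promoter and U1U2 cells in vehicle only PLAU differed, against 0.784% of all tested genes. The mitochondrial share of counts was 1.63% to 2.15% in promoter and 2.51% to 3.02% in NT libraries in vehicle, with no overlap, and 1.79% to 2.53% in U1U2 libraries; its part in these differences was not tested. These comparisons share vehicle groups with each other and with the MPA comparisons, so a deviating vehicle group enters several of them. When only the libraries of the 2 groups compared were fitted, PLAT and TFPI2 did not pass between U1U2 and NT cells (adjusted p of 0.120 and 0.0898), nor did PLAT, F3 and TFPI2 between promoter and NT cells (adjusted p of 0.0996, 0.161 and 0.0567). Over all genes the share of calls that were higher was 45.5% between promoter and NT cells and 37.6% between U1U2 and NT cells, and 56.9% and 56.3% when libraries were scaled by their totals alone.

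PLAU in vehicle was 2.05-fold higher in promoter than in NT cells (log2 fold change 1.04 ± 0.18, adjusted p = 0.00205) and 2.05-fold higher in promoter than in U1U2 cells (1.04 ± 0.18, adjusted p = 0.00915), the second being lost without U1U2 vehicle replicate 3 (adjusted p = 0.0541). U1U2 and NT cells in vehicle had PLAU means of 14.2 and 14.3 CPM (log2 fold change 0.00 ± 0.18). PLAT in vehicle was lower in U1U2 than in NT cells (-0.75 ± 0.12, adjusted p = 0.00572) and lower in promoter than in NT cells (-0.47 ± 0.12, adjusted p = 0.0212). Without NT vehicle replicate 1 the promoter difference in PLAT was -0.31 (adjusted p = 0.0782), and it was also lost without promoter vehicle replicate 1 (adjusted p = 0.0694). Promoter and U1U2 cells in vehicle did not overlap in PLAT (13.1% of all tested genes), but their difference of 0.28 ± 0.12 did not pass (adjusted p = 0.478).

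TFPI2 in vehicle was lower in U1U2 than in NT cells (-0.67 ± 0.09, adjusted p = 0.00252) and lower in promoter than in NT cells (-0.48 ± 0.09, adjusted p = 0.00389). TFPI in vehicle was lower in promoter than in NT cells (-0.50 ± 0.10, adjusted p = 0.00384), and in U1U2 cells its difference from NT cells was -0.30 ± 0.10 (adjusted p = 0.141). F3 in vehicle was higher in promoter than in NT cells (0.30 ± 0.08, adjusted p = 0.0240), a call lost without any of NT vehicle replicates 1 and 2 and promoter vehicle replicates 1, 2 and 3 (adjusted p of 0.0522 to 0.118). PLAUR differed by 0.51 ± 0.21 between promoter and NT cells in vehicle (adjusted p = 0.158), and by 0.82 without NT vehicle replicate 1 (adjusted p = 0.0146). SERPINE2 in vehicle differed from NT cells by -0.24 ± 0.15 in promoter cells (adjusted p = 0.362) and by -0.28 ± 0.15 in U1U2 cells (adjusted p = 0.358).

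In MPA the members that differed between lines in the main fit were F3 and TFPI. F3 was higher than in NT cells in promoter cells (0.83 ± 0.08, adjusted p = 1.52e-06) and in U1U2 cells (0.54 ± 0.08, adjusted p = 0.000533). TFPI was lower in promoter than in NT cells (-0.67 ± 0.10, adjusted p = 0.000263), and U1U2 cells differed from NT cells by -0.37 ± 0.10 (adjusted p = 0.0725; 0.0336 in DESeq2). These were 2 of 7 members called between promoter and NT cells, against 4.15% of all tested genes, and 1 of 7 between U1U2 and NT cells, against 1.72%. PLAT in MPA did not overlap between promoter and NT cells (23.1% of all tested genes), and its difference of 0.41 ± 0.12 stood near the threshold (adjusted p = 0.0566). It passed in DESeq2 (adjusted p = 0.0129) and with DESeq2 size factors (adjusted p = 0.0401). It also passed without the filter on low counts (adjusted p = 0.00926) and when only these 2 groups were fitted (adjusted p = 0.0303). Between promoter and U1U2 cells in MPA none of the 7 members passed, against 0.328% of all tested genes: PLAT differed by 0.50 ± 0.12 (adjusted p = 0.108), F3 by 0.30 ± 0.08 (adjusted p = 0.191) and TFPI by -0.30 ± 0.10 (adjusted p = 0.489). In that comparison PLAT passed without U1U2 MPA replicate 3 (0.61, adjusted p = 0.0453) and without the filter on low counts (adjusted p = 0.00748). PLAT and F3 passed in DESeq2 (adjusted p of 0.00668 and 0.0302).

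**Figure D4:**
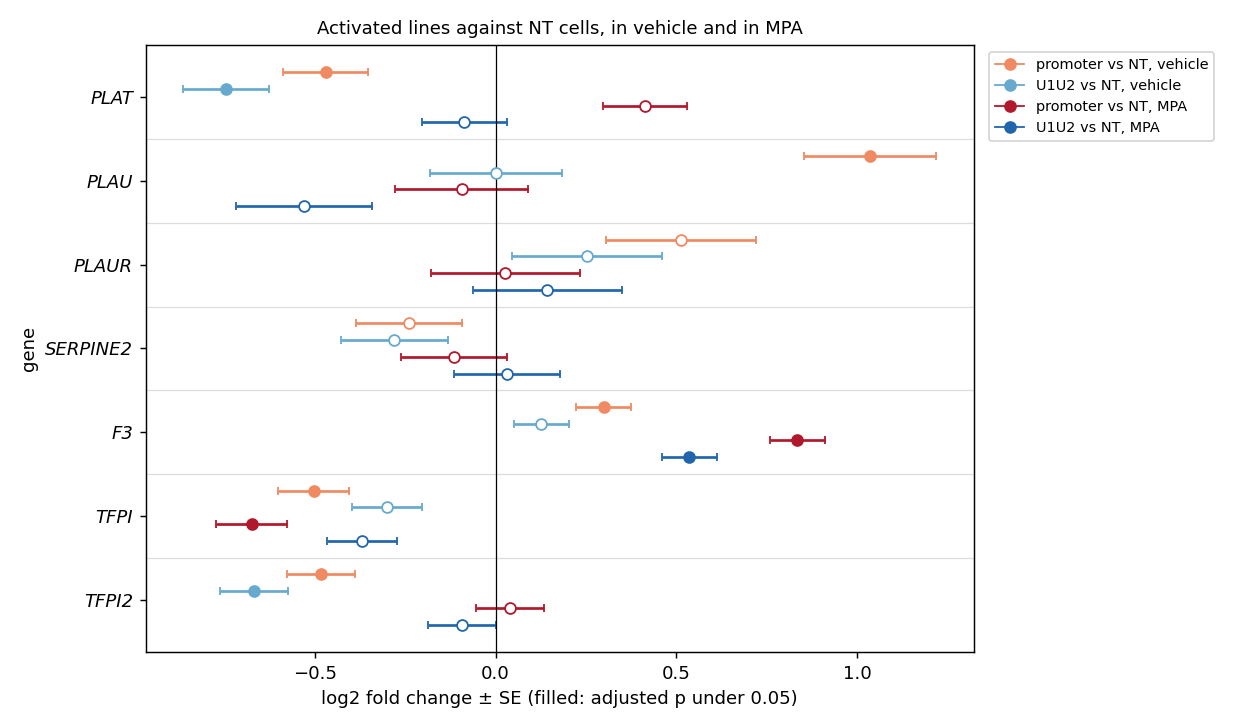
Log2 fold change of promoter or U1U2 cells over NT cells (horizontal axis) for each tested member (rows), in vehicle and in MPA, with bars of 1 SE and filled points for an adjusted p under 0.05. In vehicle PLAU lies at 1.04 in promoter cells and at 0.00 in U1U2 cells, and F3 lies further right in MPA (0.83 and 0.54) than in vehicle (0.30 and 0.13).

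The third question was whether the response to MPA differed between lines, tested as an interaction in the same fit. Between promoter and NT cells 3 of 7 members passed, against 1.56% of all tested genes (0.803% higher and 0.752% lower). The PLAT response was larger in promoter cells, by 0.88 ± 0.17 on the log2 scale (adjusted p = 0.00941), and this call was kept without any single library. The PLAU response was more negative in promoter cells, by -1.13 ± 0.26 (adjusted p = 0.0340), but this call was lost without any single one of 9 of the 12 libraries, the exceptions being replicate 1 of NT vehicle and of NT MPA and promoter vehicle replicate 3 (adjusted p of 0.0651 to 0.131). The F3 response differed by 0.54 ± 0.11 (adjusted p = 0.0148), with a fall in NT cells and a difference of 0.23 that did not pass in promoter cells. This call was lost without NT vehicle replicate 3, promoter vehicle replicate 1 or promoter MPA replicate 3 (adjusted p of 0.0540 to 0.0638). The TFPI2 response was 0.52 ± 0.13 less negative in promoter cells (adjusted p = 0.0568), and passed without replicate 1 of NT vehicle or of NT MPA or without promoter vehicle replicate 2 (adjusted p of 0.0419 to 0.0462). It also passed in DESeq2 (adjusted p = 0.0124) and without the filter on low counts (adjusted p = 0.0499).

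Between U1U2 and NT cells no member's response passed, where 0.219% of all tested genes did. The response differences were 0.66 ± 0.17 for PLAT (adjusted p = 0.146), 0.57 ± 0.13 for TFPI2 (adjusted p = 0.0987) and 0.41 ± 0.11 for F3 (adjusted p = 0.180), and all 3 passed in DESeq2 (adjusted p of 0.0176, 0.0128 and 0.0333). Between promoter and U1U2 cells no member's response passed, where 0.0129% of all tested genes did. A p that misses the threshold does not show that the responses were alike.

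Over the 18 libraries, the members' log2 CPM values moved together in part. Pearson's r was 0.763 between PLAT and SERPINE2, 0.731 between TFPI and TFPI2, 0.676 between PLAU and PLAUR, -0.487 between PLAT and PLAU and -0.614 between F3 and TFPI. The genes most like each member by Pearson's r over the same libraries were HAND2 (0.943) and ZDHHC3 (0.937) for PLAT, NRIP3 (0.899) and DMKN (0.882) for PLAU, and TNPO2 (0.945) and SH3BP5L (0.934) for PLAUR. They were TCF12 (0.966) and LMO4 (0.940) for SERPINE2, and SLC2A3 (0.926) and BAZ1A (0.905) for F3. For TFPI they were MID1 (0.966) and DPP4 (0.961), and for TFPI2 they were TENT5A (0.936) and MEF2C (0.932). Treatment, line and depth enter these values, and so does scatter between libraries of the same group. The share of each was not tested. PLAUR passed in no comparison of the main fit, so its values cannot be read as a pattern over the groups. The lowest TMM factors were 0.943 in a library of NT cells in MPA, 0.942 in U1U2 cells in MPA and 0.949 in promoter cells in vehicle. Each of these libraries was the highest of its group for SERPINE2.

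Several genes for substrates and plasma factors of the system had few or no counts. PLG, which encodes plasminogen, had 1 count in all libraries together, F2 (prothrombin) 7, FGA and FGB (fibrinogen chains) 0, FGG 4, F7 15 and PROC (protein C) 5. F10, which encodes factor X, a substrate of the tissue factor complex, was detected, with 157 to 776 counts per library. Of 17 further listed genes of the plasmin system, 9 were tested. Under MPA 11.1% of these 9 passed in promoter, 0% in U1U2 and 11.1% in NT cells. Over all tested genes the shares were 15%, 11.7% and 5.93%, so only in NT cells was the list's share the higher. In promoter cells 1 of the 9 passed, SERPINB2, an intracellular and secreted inhibitor of urokinase. It had a mean of 2.85 ± 0.406 CPM in MPA and 7.33 ± 2.72 CPM in vehicle (-1.37 ± 0.36, adjusted p = 0.0133). In NT cells SERPINB2 alone passed, with 1.76 ± 0.780 CPM in MPA and 5.30 ± 1.36 CPM in vehicle (-1.50 ± 0.39, adjusted p = 0.0275). In U1U2 cells none of the 9 passed, and SERPINB2 had 1.99 ± 0.633 CPM in MPA and 4.41 ± 2.40 CPM in vehicle (-1.10 ± 0.38, adjusted p = 0.0704). All its MPA libraries were lower there, where 23.8% of all tested genes did not overlap. In U1U2 cells SERPINB2 passed in DESeq2 (adjusted p = 0.0216), without the filter on low counts (adjusted p = 8.03e-05) and without U1U2 vehicle replicate 3 (adjusted p = 0.0304). The promoter and NT calls of SERPINB2 were lost without promoter vehicle or MPA replicate 3 (adjusted p of 0.0628 to 0.0751), and without replicate 1 of NT vehicle and replicates 1 and 3 of NT MPA, each in turn (adjusted p of 0.0572 to 0.117). The list's median log2 fold change was 0.03 in promoter, 0.17 in U1U2 and 0.09 in NT cells. Over all tested genes it was -0.0034, 0.03 and 0.02 in that order. In vehicle SERPINI1, neuroserpin, an inhibitor of the tissue-type activator, was lower in promoter than in NT cells (2.37 ± 0.169 against 3.83 ± 0.385 CPM, log2 fold change -0.68 ± 0.16, adjusted p = 0.0165). The call was lost without any of NT vehicle replicates 2 and 3 and promoter vehicle replicates 1 and 2 (adjusted p of 0.0556 to 0.0776).

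Of 30 further listed coagulation and anticoagulant genes, 15 were tested, of which 5 passed under MPA in promoter cells (1 higher, 4 lower), 6 in U1U2 cells (2 higher, 4 lower) and 5 in NT cells (1 higher, 4 lower). These are 33.3%, 40.0% and 33.3% of the tested genes of the list, beside 15%, 11.7% and 5.93% of all tested genes. The 4 that fell were the same in the 3 lines: F2R and F2RL2, receptors cut by thrombin, F2RL1, a relative cut by other proteases that include the tissue factor complex, and SDC1, a heparan sulphate proteoglycan. F2RL2 had 50.0 ± 0.994 CPM in promoter cells in MPA against 116 ± 14.3 CPM in vehicle, 49.6 ± 2.26 CPM in U1U2 cells in MPA against 114 ± 13.7 CPM in vehicle, and 75.2 ± 8.80 CPM in NT cells in MPA against 166 ± 7.48 CPM in vehicle. Its log2 fold changes were -1.22 ± 0.10 in promoter, -1.20 ± 0.10 in U1U2 and -1.14 ± 0.10 in NT cells (adjusted p of 1.31e-07, 2.08e-07 and 1.01e-06). F2RL1 was low, at 1.65 ± 0.224 CPM in promoter cells in MPA against 5.89 ± 0.866 CPM in vehicle (-1.84 ± 0.19, adjusted p = 1.19e-06), and its log2 fold change was -1.07 in U1U2 and -1.14 in NT cells. F2R was lower by -0.29 in promoter, -0.40 in U1U2 and -0.48 in NT cells, and the promoter call was lost without any single promoter library except vehicle replicate 3 (adjusted p of 0.0656 to 0.129), and without the filter on low counts (adjusted p = 0.0607). When only the libraries of the 2 groups compared were fitted, F2R did not pass in U1U2 cells (adjusted p = 0.0535), nor did SDC1 in U1U2 and NT cells (adjusted p of 0.0612 and 0.0504).

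TGM2, a transglutaminase that crosslinks matrix proteins, rose in the 3 lines. It had 196 ± 28.6 CPM in promoter cells in MPA against 81.0 ± 6.31 CPM in vehicle, 148 ± 27.1 CPM in U1U2 cells in MPA against 66.5 ± 7.56 CPM in vehicle, and 179 ± 24.3 CPM in NT cells in MPA against 77.0 ± 21.4 CPM in vehicle. Its log2 fold changes were 1.28 ± 0.17, 1.15 ± 0.17 and 1.22 ± 0.17 in promoter, U1U2 and NT cells. LMAN1, a carrier of clotting factors through the secretory pathway, rose in U1U2 cells (0.50 ± 0.12, adjusted p = 0.00709), and this call was lost without U1U2 vehicle replicate 2 (adjusted p = 0.0609). SDC1 changed by -0.78 in promoter, -0.37 in U1U2 and -0.44 in NT cells, and in MPA it was lower in promoter than in NT cells (-0.41 ± 0.08, adjusted p = 0.00536; 0.0510 without promoter MPA replicate 3). Between the lines, F2RL2 was lower than in NT cells in promoter cells (-0.51 in vehicle and -0.59 in MPA) and in U1U2 cells (-0.54 in vehicle and -0.60 in MPA), and F2R was lower in promoter than in NT cells in vehicle (-0.39 ± 0.09, adjusted p = 0.00942). The vehicle call of F2RL2 in U1U2 cells was lost without NT vehicle replicate 2, U1U2 vehicle replicate 2 or U1U2 vehicle replicate 3 (adjusted p of 0.0755 to 0.137), and that of F2R without NT vehicle replicate 2 or promoter vehicle replicate 1 (adjusted p of 0.0571 and 0.0714). When only the libraries of the 2 groups compared were fitted, F2RL2 did not pass between U1U2 and NT cells (adjusted p of 0.136 in vehicle and 0.0563 in MPA), nor did F2R between promoter and NT cells in vehicle (adjusted p = 0.0765).

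**Figure D5:**
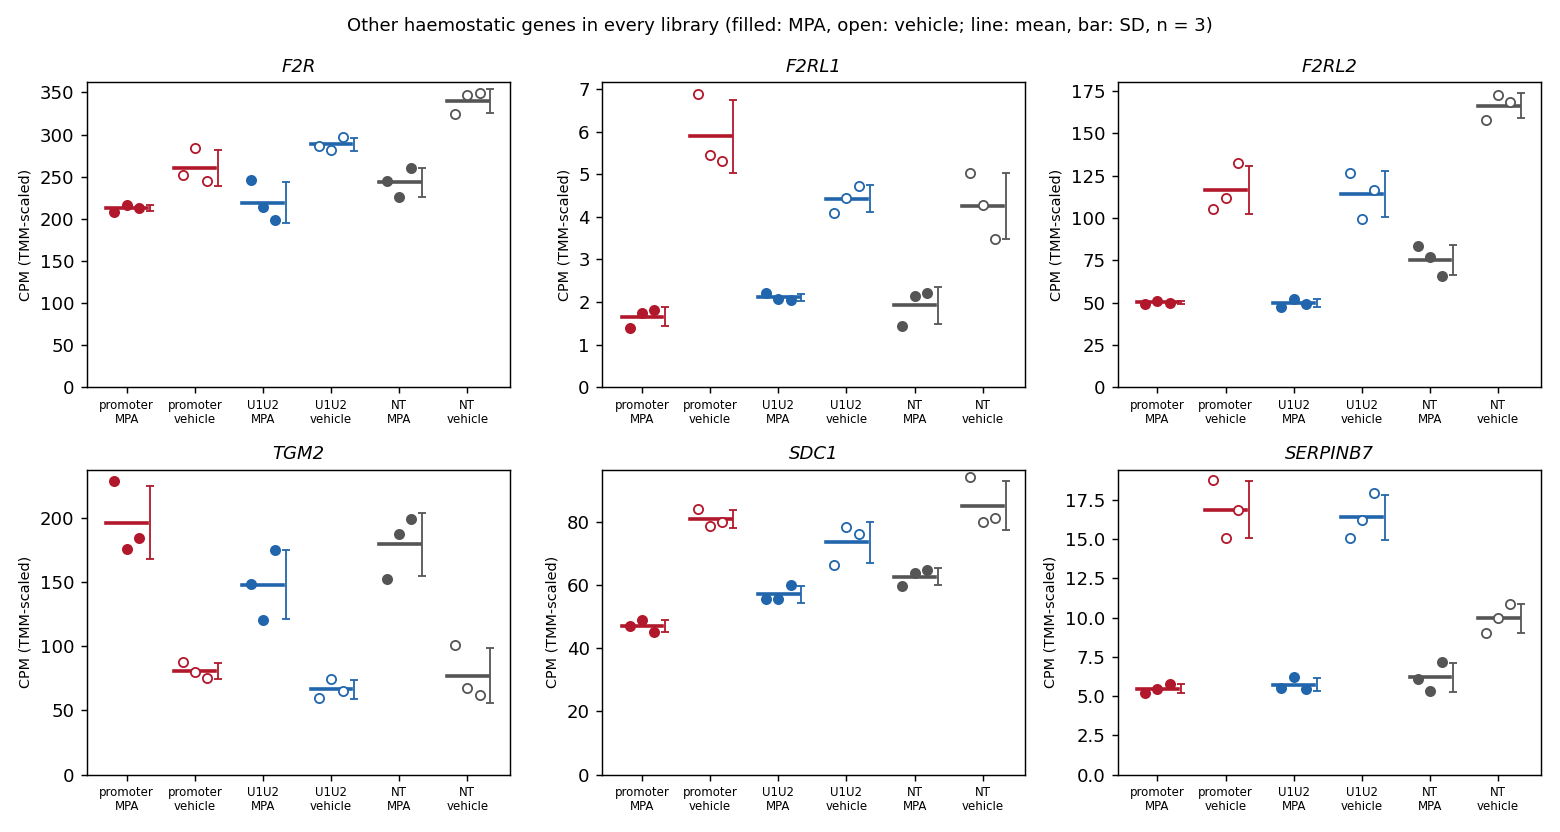
Levels of 6 further genes in every library, in TMM-scaled CPM on linear axes from 0, with filled points for MPA, open points for vehicle, group means as lines and SD as bars (n = 3). F2RL2 lies near 50.0 CPM in both activated lines in MPA and near 166 CPM in NT cells in vehicle, and TGM2 is the gene of the 6 that lies higher in MPA in all 3 lines.

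Of 12 further serpins, 8 were tested, of which 3 passed under MPA in promoter cells, 1 in U1U2 cells and 2 in NT cells. These are 37.5%, 12.5% and 25.0% of the tested genes of the list, beside 15%, 11.7% and 5.93% of all tested genes, so in U1U2 cells the share was near that of all genes. SERPINB7 fell in the 3 lines, with 5.47 ± 0.293 CPM in promoter cells in MPA against 16.9 ± 1.84 CPM in vehicle, 5.72 ± 0.423 CPM in U1U2 cells in MPA against 16.4 ± 1.43 CPM in vehicle, and 6.20 ± 0.910 CPM in NT cells in MPA against 9.96 ± 0.919 CPM in vehicle. In vehicle it was higher than in NT cells in promoter cells (0.76 ± 0.13, adjusted p = 0.00147) and in U1U2 cells (0.72 ± 0.13, adjusted p = 0.0129), the second being lost without NT vehicle replicate 2, U1U2 vehicle replicate 2 or U1U2 vehicle replicate 3 (adjusted p of 0.0750 to 0.0905). Its response differed between promoter and NT cells by -0.93 ± 0.19 (adjusted p = 0.0140), a call lost without NT vehicle replicate 2, promoter vehicle replicate 1 or promoter MPA replicate 1 (adjusted p of 0.0575 to 0.0732). SERPINB9, an intracellular inhibitor of granzyme B, fell in promoter cells (-0.73 ± 0.16, adjusted p = 0.00290) and in NT cells (-0.59 ± 0.15, adjusted p = 0.0279), where the call was lost without NT vehicle replicate 2 or 3 or NT MPA replicate 2 or 3 (adjusted p of 0.0625 to 0.145). SERPINF1, a secreted serpin that does not inhibit proteases, rose in promoter cells (0.96 ± 0.23, adjusted p = 0.00657). In vehicle it was lower in promoter than in NT cells (-0.94 ± 0.23, adjusted p = 0.0188), a call lost without NT vehicle replicate 1, promoter vehicle replicate 1 or promoter vehicle replicate 2 (adjusted p of 0.0685 to 0.0863). When only the libraries of the 2 groups compared were fitted, SERPINB7 did not pass in NT cells under MPA (adjusted p = 0.0706) or between U1U2 and NT cells in vehicle (adjusted p = 0.136). SERPINB9 in NT cells and SERPINF1 and SERPINI1 in promoter against NT cells in vehicle did not pass either (adjusted p of 0.131, 0.0594 and 0.104).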

How the data were processed

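Messenger RNA was sequenced from 18 libraries, 3 in each of 6 groups, with a stranded poly(A) kit, per the labels' protocols. The authors deposited a gene table of raw counts, which are whole numbers, and a log2 CPM table, which no test used. STAR 2.6.0c, edgeR 4.2.2, R 4.4.1 and the build hg38 are listed per the submitters' processing notes; the program that counted the reads, its strand option and its annotation are not given in the sources used here. Tests used edgeR 4.0.16 (R 4.3.3): filterByExpr with a minimum count of 10 kept 15558 genes, TMM factors scaled the libraries, and 1 quasi-likelihood fit with 1 term per group held all 18 libraries. CPM are TMM-scaled, log2 CPM use a prior count of 2, and the SE is the log2 fold change divided by the square root of F. Benjamini-Hochberg adjustment ran over all tested genes. The fit was tested on simulated data first. Alternatives were DESeq2 1.42.0, DESeq2 size factors, library totals alone, no filter, fits of only the groups compared, a replicate block and leaving out each library. Library totals ranged from 11.9 to 33.4 M, and no 2 libraries of a group agreed within sampling noise (chi-square over degrees of freedom, 1.95 to 34.9). The labels give 1 batch, so nothing could be repeated within batches.

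Without the strand setting, reads of genes that overlap on opposite strands cannot be told apart: C10orf55 overlaps PLAU (0 to 7 counts) and GNGT1 overlaps TFPI2 (0 to 1 count). AC007319.1 overlaps TFPI and AC002076.1 overlaps TFPI2 in the same way, and their counts are not given here. RN7SL368P overlaps PLAUR on the same strand (0 to 7 counts), where a strand setting would not separate the reads. Positions and exon lengths are from GENCODE 29 on GRCh38. The members and the further lists were chosen with earlier results of these data known. The 8 members are always named; listed genes are named where called in a comparison of 2 groups or where their absence describes the system; and for each tested member the 2 genes with the highest Pearson's r are named. Values of 1 listed gene are not reported here.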

Additional observations from a re-analysis of the deposited data

Results flagged for a closer look

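In the edgeR fit 3 interaction tests passed, each comparing the MPA response of promoter cells with that of NT cells. The PLAT response differed by 0.88 on the log2 scale (adjusted p = 0.00941), and every promoter and NT library in MPA was above every vehicle library of its line. The PLAU response differed by -1.13 (adjusted p = 0.0340), with MPA libraries all lower in promoter cells and overlapping with vehicle in NT cells. The PLAU call was lost in most fits that left out 1 library (adjusted p up to 0.131) and with the replicate block (adjusted p = 0.0741). The F3 response differed by 0.54 (adjusted p = 0.0148), with all MPA libraries higher than vehicle in promoter cells and all lower in NT cells. This call was lost without NT vehicle replicate 3, promoter vehicle replicate 1 or promoter MPA replicate 3 (adjusted p of 0.0540 to 0.0638). The F3 difference in promoter cells did not itself pass (0.23, adjusted p = 0.0555). The fall in NT cells was lost in 4 of 6 fits that left out 1 library. Of all tested genes, 35.7% did not overlap between MPA and vehicle in promoter cells and 19.3% in NT cells. In vehicle PLAT was lower and PLAU higher in promoter than in NT cells. F3 was higher in promoter than in NT cells in both MPA (0.83) and vehicle (0.30). The vehicle calls of PLAT and F3 were each lost in some fits that left out 1 library (adjusted p up to 0.0782 and 0.118).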

How the results depend on the processing

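The members' log2 fold changes, 7 members in 12 comparisons or differences of responses, were recomputed under every alternative and without each library that the comparison uses, 1134 values in all. Of these, 1056 kept their side of the threshold, 53 lost the call and 25 gained one. Among values called in either fit, 0 turned round. Values called in neither fit could change sign and are among the 1056. For example, under MPA in NT cells, leaving out 1 library moved PLAU from -0.19 to as much as 0.04 and PLAUR from -0.02 to as much as 0.28. Fitting only the groups compared gave 1 member called under MPA in NT cells in place of 4, 0 between U1U2 and NT cells in vehicle in place of 2, and 2 between promoter and NT cells in vehicle in place of 5; fewer libraries enter that fit. DESeq2 called 2 members between U1U2 and NT cells in MPA in place of 1, 2 between promoter and U1U2 cells in MPA in place of 0, and 3 for the difference of responses between U1U2 and NT cells in place of 0. Without the filter these last 2 counts were 1 and 2. Leaving out 1 library gave 1 to 4 members under MPA in NT cells, 3 to 5 between promoter and NT cells in vehicle, 0 to 1 between promoter and U1U2 cells in vehicle, 0 to 1 between promoter and U1U2 cells in MPA, and 1 to 4 for the difference of responses between promoter and NT cells. The count of 3 rested on promoter vehicle replicate 1, and the counts of 0 and 1 between promoter and U1U2 cells on U1U2 vehicle replicate 3 and U1U2 MPA replicate 3.

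Same-numbered libraries showed no common deviation from their group means (r over 0.1 in 13 of 45 pairs, from -0.52 to 0.50). With 3 libraries per group this check cannot exclude pairing, and the labels do not say what the numbers stand for. With the replicate block, TFPI in NT cells had -0.36 (adjusted p = 0.0679) and the PLAU response difference between promoter and NT cells -1.14 (adjusted p = 0.0741); no other member call changed. Among the further genes F2R in promoter cells (adjusted p = 0.0508) and SERPINB9 in NT cells (adjusted p = 0.0531) did not pass. Over all genes the block gave 62 calls in place of 178 between U1U2 and NT cells in vehicle, 69 in place of 122 between promoter and U1U2 cells in vehicle, and 25 in place of 51 for them in MPA. For differences of responses it gave 12 in place of 34, 150 in place of 242 and 0 in place of 2 (U1U2 minus NT, promoter minus NT, promoter minus U1U2). Fits of only the groups compared gave 491 in place of 922 calls under MPA in NT cells and 1049 in place of 1814 in U1U2 cells. Under MPA in promoter cells they gave more, 2839 in place of 2339. In vehicle they gave 4 between U1U2 and NT cells, 435 in place of 1050 between promoter and NT cells and 11 between promoter and U1U2 cells. In MPA they gave 85 in place of 268 between U1U2 and NT cells and 16 between promoter and U1U2 cells. For the first and last difference of responses they gave 8 and 0. DESeq2 gave 473, 265 and 88 calls for U1U2 minus NT in vehicle and promoter minus U1U2 in vehicle and MPA, and 123, 458 and 58 for the differences of responses; no filter gave 808 for the first and 281, 758 and 18 for those. Library totals alone, without TMM, moved the share of higher calls to 56.3% in place of 37.6% between U1U2 and NT cells in vehicle. They moved it to 56.9% in place of 45.5% between promoter and NT cells in vehicle, and to 52.9% in place of 67.6% for U1U2 minus NT responses. Under MPA the share became 36.9% in place of 46.6% in U1U2 cells and 35.6% in place of 44.1% in promoter cells. Leaving out 1 library gave all-gene counts of 1565 to 2365 (promoter), 1267 to 1921 (U1U2) and 612 to 972 (NT) under MPA. They were 472 to 1347, 23 to 639 and 39 to 64 in vehicle and 390 to 490, 154 to 214 and 15 to 40 in MPA (promoter minus NT, U1U2 minus NT, promoter minus U1U2), and 116 to 271, 8 to 47 and 0 to 3 for the differences of responses in that order. Low counts limit THBD, SERPINB2, F2RL1 and SERPINI1.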
